A study of Mus musculus with 30 samples.

Results

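Genomic imprinting leaves a gene with a maternal and a paternal copy of unequal activity, set by DNA methylation that is placed in the germ line and kept through cell division. H19 and Igf2 share an imprinting control region on the distal end of mouse chromosome 7, where the maternal copy is known to make the long noncoding RNA H19 and the paternal copy the growth factor Igf2. On chromosome 12 the maternal copy is known to make the noncoding RNAs Meg3, Rian and Mirg, and the paternal copy the transmembrane Notch-family protein Dlk1. Counts of reads carry no allele information, so that the parent of origin of a transcript was not measured here.

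The 8 genes described here are H19, Igf2, Cdkn1c and Kcnq1ot1 on chromosome 7 and Meg3, Rian, Mirg and Dlk1 on chromosome 12. They were chosen by name out of 54134 gene rows because H19 and Meg3 had been seen to be low in cells without functional Nr6a1, together with their partners in each cluster. The difference between genotypes therefore selected them, and for these 8 genes it is given as a description with no test. Of the 8 genes, 7 passed the filter on low counts, and Mirg did not.

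RNA was measured in 30 libraries from cells derived from the mouse Bruce4 embryonic stem cell line, either wildtype or Nr6a1-/-, at 5 stages with 3 replicates per group. All cells were kept in FGF2, for 48 h to reach d2. CHIR99021, which activates Wnt signalling, was then added for 12 h (d2.5) or 24 h (d3), and d3 cells were cultured for 24 h more in the same factors (d4) or with the ligand Gdf11 added (d4G). Nr6a1-/- cells were a single clone with a deletion in exon 4 of each allele, so that genotype and clone cannot be told apart, and the stem cells had been grown on fibroblast feeders that were removed before differentiation. The labels do not say that replicates were separate cultures, and p-values then measure only the spread between these libraries. By their labels, d4 libraries carry the same index (the bases that mark a library in a pool) as d4G or d3 libraries of their genotype. Whether d4 was prepared in another pool is not stated. Steps from d3 to d4 and from d4 to d4G therefore cannot be told from a difference between pools.

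Library totals ranged from 1570714 to 3688197 counts, and a count of 0 in a library still allows up to 3 counts, which is 0.829 to 1.91 CPM, the count scaled to the library's total. The 3′ counts of Nr6a1 do not check the genotype labels, because the deletion lies inside the gene: its mean at d2 was 85.7 CPM (wildtype) and 94.8 CPM (Nr6a1-/-). Summed markers of neuromesodermal progenitors, the cells the protocol makes, were 1004 to 1088 CPM in wildtype and 1363 to 1581 CPM in Nr6a1-/- libraries at d3. The library d4 wildtype replicate 2 stood apart, with summed epiblast markers of 649.6 CPM against 87.4 and 94.2 CPM in the other replicates.

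The promoter windows of the genes were read to show the sequence from which the paternally expressed Dlk1 and the maternally expressed Meg3 start, since these neighbours differed in opposite directions. RefSeq windows of build GRCm38.p6, each with 250 bases before and 50 after a start, were found for 6 of the 8 genes in 10 windows, and not for H19 and Cdkn1c. The Dlk1 window is shown for its 250 bases before the start (chr12:109452573-109452822, plus strand) and the first Meg3 window in full (chr12:109540746-109541045, plus strand). Capitals mark TGCCGC on either strand, the hexamer that the imprint protector Zfp57 is known to bind when methylated.
Dlk1: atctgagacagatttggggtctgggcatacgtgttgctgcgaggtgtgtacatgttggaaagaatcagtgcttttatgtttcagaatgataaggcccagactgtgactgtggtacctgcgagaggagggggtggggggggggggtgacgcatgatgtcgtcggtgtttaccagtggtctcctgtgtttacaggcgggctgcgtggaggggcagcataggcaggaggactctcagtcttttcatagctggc
Meg3: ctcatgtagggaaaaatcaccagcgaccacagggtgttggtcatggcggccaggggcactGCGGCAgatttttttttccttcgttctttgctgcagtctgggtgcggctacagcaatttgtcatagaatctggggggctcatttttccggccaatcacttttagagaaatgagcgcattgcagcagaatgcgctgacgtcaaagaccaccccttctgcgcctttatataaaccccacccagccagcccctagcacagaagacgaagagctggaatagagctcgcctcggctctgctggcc
The Meg3 window held 1 TGCCGC and the Dlk1 window none. That hexamer was found in 3813 of 32851 promoter windows, or 11.6%. The nuclear receptor half-site AGGTCA stood in 16.3% of all windows, and among the 10 windows it was in 1 of Igf2 and in the second of Meg3. The extended half-site TCAAGGTCA, to which Nr6a1 is known to bind, contains AGGTCA and was in 0.423% of all windows and in 0 of the 10. These matches describe letters in these windows alone.

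The clusters also hold microRNA genes inside the long transcripts. On the same strand, RefSeq placed 1 hairpin in each of H19, Igf2 and Meg3, 3 in Rian and 14 in Mirg, and the mature miR-1906 in Meg3 without a hairpin in the table. The mature RNAs of the hairpins within H19 (chr7:142577078-142577133, minus strand), Meg3 (chr12:109563710-109563765, plus strand) and, for 1 hairpin of Rian, chr12:109618270-109618326 are shown because these 3 host transcripts were the ones low in Nr6a1-/- cells at d2, with the seed (bases 2 to 8) in capitals.
miR-675-5p in H19: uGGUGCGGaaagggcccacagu
miR-675-3p in H19: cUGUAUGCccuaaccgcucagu
miR-770-5p in Meg3: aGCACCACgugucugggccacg
miR-770-3p in Meg3: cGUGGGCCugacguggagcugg
miR-370-5p in Rian: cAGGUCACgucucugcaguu
miR-370-3p in Rian: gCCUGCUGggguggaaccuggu
No seed was shared among these 6. Over all mature RNAs inside the members there were 38 distinct seeds, and the only shared seed, GGUUGCC, was carried by 2. The rows of the hairpin genes held 0 counts in all 30 libraries, so that the microRNAs themselves were not measured.

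H19 was lower in every Nr6a1-/- library than in any wildtype library of its stage. H19 (chr7:142575529-142578143, minus strand; a long noncoding RNA) had 14, 13 and 18 counts in the 3 wildtype libraries at d2. The d2.5 libraries held 24, 10 and 8, and the d3 libraries 26, 26 and 25. Later, the d4 wildtype libraries held 262, 368 and 379 counts, and at d4G 1298, 1547 and 1464. The Nr6a1-/- libraries held 3, 4 and 3 counts at d2, and 3, 6 and 2 at d2.5. They stayed as low with 5, 3 and 2 counts (d3) and 4, 2 and 5 (d4), and had 11, 13 and 16 (d4G).

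Within wildtype cells H19 rose late. Its mean was 6.41 ± 0.432 CPM at d2 and 616.4 ± 12.2 CPM at d4G (SD, n = 3). The step from d2 to d2.5 (log2 fold change 0.12 ± 0.29, SE; edgeR FDR = 0.799) and from d2.5 to d3 (0.72 ± 0.25; edgeR FDR = 0.0647) did not pass the FDR of 0.05. Both rest on d2.5 replicate 1, without which they were -0.48 and 1.32, and the step to d3 then passed. H19 then rose from d3 to d4 (3.26 ± 0.16; edgeR FDR = 5.16e-18) and again with Gdf11, from d4 to d4G (2.49 ± 0.11; edgeR FDR = 5.47e-20). Nr6a1-/- cells did not show the rise to d4: H19 stood at 1.34 CPM at d3 and 1.61 CPM at d4 (0.29 ± 0.54; edgeR FDR = 0.780). Between d4 and d4G, however, H19 rose in these cells too, from 1.61 to 6.81 CPM (2.00 ± 0.39; edgeR FDR = 2.58e-04).

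The description of the genotype difference follows from those levels. In Nr6a1-/- cells H19 lay lower, with a log2 fold change of -2.20 ± 0.39 at d2 and -2.34 ± 0.39 (d2.5). It then lay at -3.05 ± 0.35 (d3), -6.02 ± 0.22 (d4) and -6.51 ± 0.16 (d4G). The d2.5 value was -1.74 without wildtype replicate 1. In pooled counts, wildtype cells held 4.73 times the H19 of Nr6a1-/- cells at d2 (95% interval 2.35 to 10.5, exact, counting error only). At d4G they held 92.2 times (67.6 to 129.3).

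**Figure D1:**
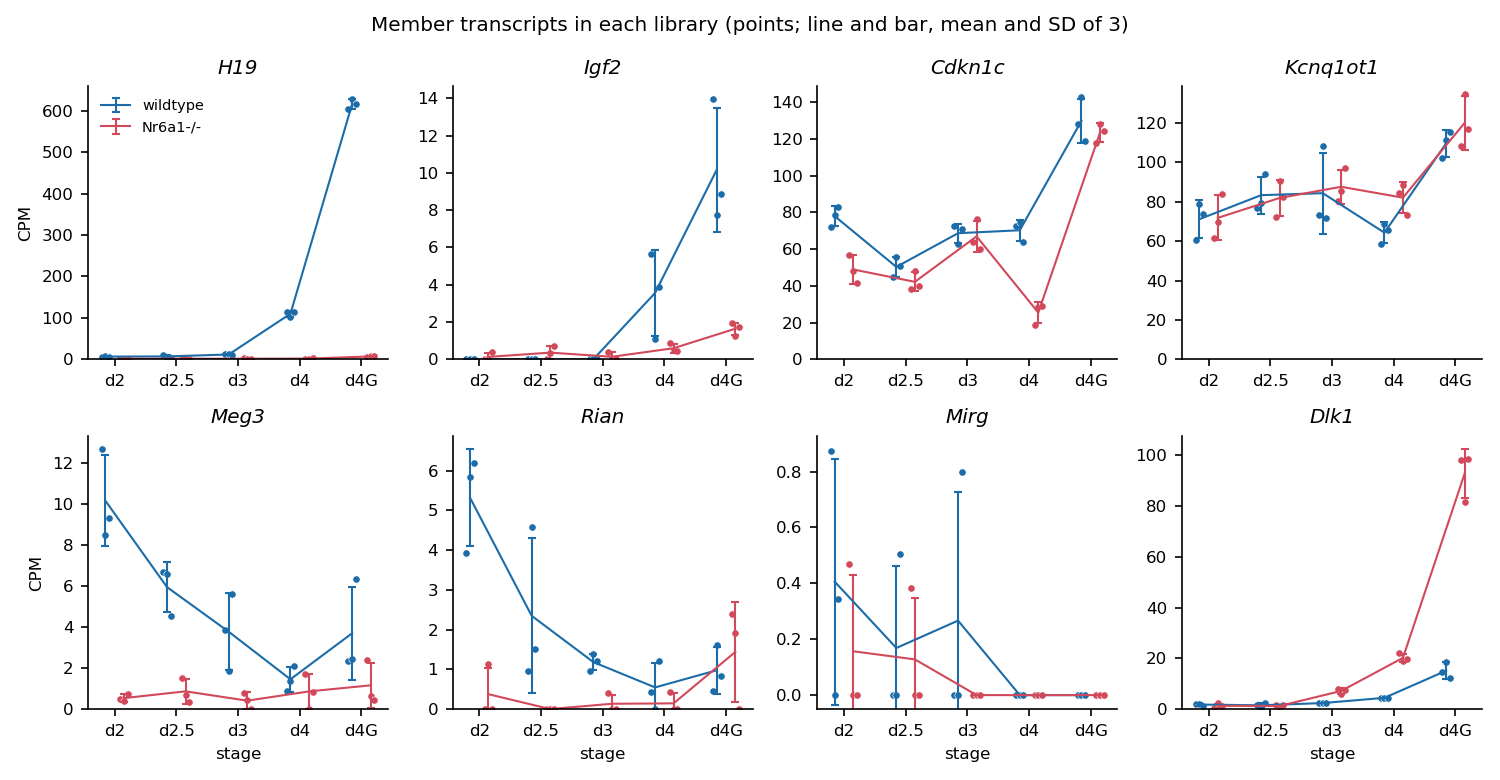
CPM of each of the 8 genes (vertical axes, linear and separate for each gene) by stage (horizontal axes) in wildtype (blue) and Nr6a1-/- (red) cells. Points are single libraries, and lines and bars give the mean and SD of 3, with bars cut at the axis; H19 reaches 616.4 CPM in wildtype against 6.81 CPM in Nr6a1-/- cells at d4G, and Dlk1 15.1 against 92.8 CPM.

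A further set of genes was low in the same libraries, and it stands beside the H19 result. Of 12 endoderm markers, 8 passed the filter, 6 of them through wildtype groups alone, so that no count of calls is given. The summed level of the 12 was 62.6 to 77.5 CPM in wildtype and 14.2 to 25.9 CPM in Nr6a1-/- libraries at d2, and 102.9 to 131.2 CPM against 10.1 to 22.9 CPM at d4G. At d2, 8 to 9 of the 12 lay above 2 CPM in a wildtype library and 2 to 3 in an Nr6a1-/- library, and at d4G 7 to 9 and 1 to 4. Sox17, a transcription factor of endoderm, had a d4G mean of 37.8 CPM (wildtype) and 2.76 CPM (Nr6a1-/-), while Cer1 was at 0 and Afp at 0 or 1 counts per group at d2 and d4G. Within wildtype cells, however, the sum was 108.6 to 114.6 CPM at d3 and 98.1 to 128.6 CPM at d4, the step over which H19 rose from 11.5 to 109.9 CPM. The part of endoderm-like cells in the H19 difference was not tested, and in these bulk libraries fewer cells of a type and less RNA per cell cannot be told apart.

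**Figure D2:**
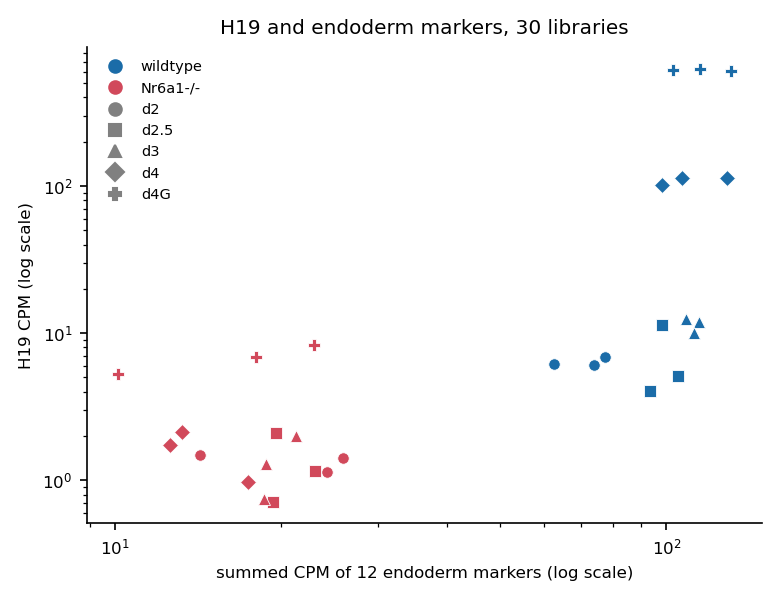
H19 level (vertical axis, CPM, log scale) against the summed level of 12 endoderm markers (horizontal axis, CPM, log scale) in each of the 30 libraries, coloured by genotype and shaped by stage. Wildtype libraries spread over a wide range of H19 at marker sums of 62.6 to 131.2 CPM, and Nr6a1-/- libraries lie at 25.9 CPM or less.

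Igf2, the growth factor encoded beside H19, appeared late as well. Igf2 (chr7:142650766-142666816, minus strand) had 0 counts in all wildtype libraries at d2, d2.5 and d3. It then had 13, 4 and 13 counts at d4 and 30, 19 and 21 at d4G. Nr6a1-/- libraries held 0 to 2 counts up to d4 and 4, 2 and 4 counts at d4G. The genotypes did not overlap at d4 or d4G, and at the earlier stages Igf2 could not be told from background at this depth in either genotype.

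Igf2 passed the filter through the wildtype d4 and d4G groups alone, so that its first step, from 0 counts at d3, is a description. The pooled wildtype level was at least 7.29-fold higher at d4, with 3 counts taken over the d3 group. Between d4 and d4G, the groups it passed through, Igf2 rose (log2 fold change 1.59 ± 0.39; edgeR FDR = 0.00251). In Nr6a1-/- cells no step of Igf2 passed, including d4 to d4G (1.41 ± 0.87; edgeR FDR = 0.285). The genotype difference was -2.38 ± 0.70 at d4 and -2.56 ± 0.49 at d4G, and the pooled wildtype level at d4G was 5.99 times that of Nr6a1-/- cells (95% counting interval 3.07 to 13.0). H19 and Igf2 were therefore both low in Nr6a1-/- cells at d4 and d4G, and no gain of Igf2 stood beside the low H19. Over the 15 wildtype libraries, which share the course of stages, log2 CPM of H19 and Igf2 had a Pearson r of 0.964. Igf2os, an antisense transcript that overlaps Igf2, had a d4 mean of 8.23 CPM (wildtype) and 5.08 CPM (Nr6a1-/-, edgeR FDR = 0.122) and 10.9 against 6.14 CPM at d4G (edgeR FDR = 0.107). Whether counting used strand is not given in the sources used here, so that reads of Igf2 and Igf2os cannot be told apart.

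Cdkn1c and Kcnq1ot1 belong to the neighbouring imprinted domain. Cdkn1c encodes the cyclin-dependent kinase inhibitor p57, and Kcnq1ot1 is the noncoding RNA that is known to silence genes of the domain on the paternal copy. Cdkn1c (chr7:143458339-143461050, minus strand) differed between genotypes at d2 and d4 and hardly at the other stages. Its wildtype libraries held 165, 148 and 241 counts at d2 and 166, 270 and 212 at d4. The Nr6a1-/- libraries held 121, 128 and 110 counts at d2 and 43, 59 and 68 at d4. In CPM every Nr6a1-/- library lay below every wildtype library at these stages, and the groups overlapped at d2.5, d3 and d4G.

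As a description, the log2 fold change of Cdkn1c was -0.68 ± 0.13 at d2 and -1.47 ± 0.14 at d4. Elsewhere it was -0.25 ± 0.14 (d2.5), -0.04 ± 0.13 (d3) and -0.08 ± 0.12 (d4G). The low value at d4 came and went within the Nr6a1-/- cells. There Cdkn1c rose from d2.5 to d3 (0.66 ± 0.13; edgeR FDR = 3.72e-04), fell from 66.9 to 25.4 CPM between d3 and d4 (-1.40 ± 0.15; edgeR FDR = 2.62e-09) and rose to 123.3 CPM with Gdf11 (2.28 ± 0.14; edgeR FDR = 2.31e-15). In wildtype cells it fell from d2 to d2.5 (-0.64 ± 0.13; edgeR FDR = 4.55e-04) and was 68.6 CPM at d3 and 70.2 CPM at d4 (0.03 ± 0.13; edgeR FDR = 0.895). It rose with Gdf11 to 129.8 CPM (0.89 ± 0.12; edgeR FDR = 3.37e-07). The wildtype rise from d2.5 to d3 (0.45 ± 0.14; edgeR FDR = 0.0249) did not pass without d2.5 replicate 1 (0.37) or 3 (0.47) or without d3 replicate 1 (0.42) or 3 (0.44).

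Kcnq1ot1 was the member whose levels differed least. Kcnq1ot1 (chr7:143203458-143296549, minus strand, antisense within Kcnq1) had 60.3, 79.1 and 74.0 CPM in wildtype and 61.7, 69.6 and 84.2 CPM in Nr6a1-/- libraries at d2. At d4 the wildtype libraries had 58.4, 68.8 and 65.7 CPM and the Nr6a1-/- libraries 84.5, 88.5 and 73.3 CPM, and only there did the groups not overlap. The log2 fold change between genotypes ran from -0.02 ± 0.14 at d2.5 to 0.34 ± 0.14 at d4. The pooled ratio of Nr6a1-/- to wildtype was 0.988 at d2.5 (95% counting interval 0.879 to 1.11) and 1.26 at d4 (1.12 to 1.41). Kcnq1 itself had 0 to 2 counts in each library.

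With Gdf11, Kcnq1ot1 rose in both genotypes, by a log2 fold change of 0.76 ± 0.13 in wildtype (edgeR FDR = 3.74e-05) and 0.54 ± 0.14 in Nr6a1-/- cells (edgeR FDR = 0.00366). A wildtype fall from d3 to d4 (-0.38 ± 0.14; edgeR FDR = 0.0447) was lost without d3 replicate 2 (-0.17) and without any 1 of the d4 replicates (-0.33, -0.42 and -0.38).

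On chromosome 12, Meg3 and Rian were low in Nr6a1-/- cells at the early stages. Meg3 (chr12:109541001-109571726, plus strand) had 29, 16 and 27 counts in the wildtype d2 libraries and 1, 1 and 2 in those of Nr6a1-/- cells. The d2.5 libraries held 14, 13 and 9 against 4, 2 and 1, and the d3 libraries 8, 4 and 14 against 2, 1 and 0. Meg3 was scarce in both genotypes afterwards, with 2, 5 and 7 against 4, 0 and 2 counts (d4) and 5, 6 and 15 against 5, 1 and 1 (d4G). The genotypes did not overlap at d2, d2.5 and d3, and overlapped at d4 and d4G.

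The wildtype level of Meg3 was highest at d2, at 10.2 CPM, and 1.45 CPM at d4, but no single step passed the FDR threshold (edgeR FDR = 0.135 from d2 to d2.5, 0.421 to d3, 0.0794 to d4 and 0.0740 from d4 to d4G). Meg3 passed the filter through wildtype d2 and d2.5 alone, which favours a fall from these groups. The step from d3 to d4 passed only without d3 replicate 2 (log2 fold change -1.64 against -1.32). The genotype difference of Meg3 was -4.12 ± 0.58 at d2, and then -2.74 ± 0.58 (d2.5), -3.11 ± 0.74 (d3), -0.73 ± 0.74 (d4) and -1.62 ± 0.64 (d4G). Without Nr6a1-/- replicate 1 these were -3.37 (d2.5), -3.96 (d3), -1.64 (d4) and -2.74 (d4G). In pooled counts wildtype cells held 18.9 times the Meg3 of Nr6a1-/- cells at d2 (95% counting interval 7.07 to 71.3). At d4 the ratio was 1.70 (0.613 to 5.39), and a difference was not detectable at that depth.

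Rian, a host of small nucleolar RNAs downstream of Meg3, had few counts. Rian (chr12:109603940-109661716, plus strand) had 9, 11 and 18 counts in wildtype and 0, 3 and 0 in Nr6a1-/- libraries at d2. At d2.5 it had 2, 9 and 3 counts in wildtype and 0 in each Nr6a1-/- library, so that the pooled wildtype level was at least 6.38-fold higher, with 3 counts taken over the Nr6a1-/- group. From d3 on no library of either genotype held more than 5 counts. The genotype difference was -3.57 ± 0.76 at d2, where all 3 Nr6a1-/- counts came from replicate 2, and at d4G it was 0.41 ± 0.89 on 7 wildtype and 8 Nr6a1-/- counts. No step between stages passed the threshold for Rian in either genotype with all libraries. The wildtype step from d2 to d2.5 passed without d2.5 replicate 2 (-2.09), and the Nr6a1-/- step from d4 to d4G without d4G replicate 3 (3.49). Rian passed the filter through wildtype d2 alone, which favours a fall from d2, so that its step from there is a description. Over the 15 wildtype libraries Meg3 and Rian had a Pearson r of 0.751, which rests on low counts and a shared course of stages.

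Mirg, the furthest of the 3 noncoding RNAs (chr12:109729764-109749460, plus strand), had 0 to 2 counts in each library. Its total over 3 wildtype libraries at d2 was 3 counts against 1 in Nr6a1-/- cells, and it held 0 counts in all libraries at d4 and d4G. Its loss or presence was not measurable at this depth.

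Dlk1 went the other way. Dlk1 (chr12:109452823-109463336, plus strand) had 5, 4 and 3 counts in wildtype and 1, 6 and 3 in Nr6a1-/- libraries at d2. At d3 it had 5, 5 and 6 counts in wildtype and 20, 14 and 20 in Nr6a1-/- libraries. At d4 the counts were 10, 16 and 15 against 51, 39 and 46, and at d4G 31, 46 and 29 against 204, 128 and 230. The genotypes overlapped at d2 and d2.5, and from d3 on every Nr6a1-/- library lay above every wildtype library.

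Within Nr6a1-/- cells Dlk1 rose at each of 3 steps. It rose from d2.5 to d3 (log2 fold change 2.52 ± 0.38; edgeR FDR = 6.23e-06), from d3 to d4 (1.49 ± 0.23; edgeR FDR = 3.20e-06) and from d4 to d4G (2.20 ± 0.16; edgeR FDR = 2.59e-13). In wildtype cells only the last step passed (1.76 ± 0.25; edgeR FDR = 9.50e-07), and the steps to d3 (0.65 ± 0.52; edgeR FDR = 0.523) and to d4 (0.89 ± 0.37; edgeR FDR = 0.101) did not. The difference between the genotypes in these steps was not tested, since it is made of the contrasts that selected the gene. The genotype difference of Dlk1 was -0.33 ± 0.54 at d2, and then 1.58 ± 0.35 (d3), 2.18 ± 0.24 (d4) and 2.62 ± 0.17 (d4G), and the pooled ratio at d4G was 6.19 (95% counting interval 5.02 to 7.69).

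In time, Meg3 and Dlk1 lay side by side as follows, as a description. Meg3 was already low in Nr6a1-/- cells at d2 and d2.5, where the Dlk1 counts of both genotypes were 1 to 6 per library and its pooled ratio had counting intervals of 0.307 to 2.00 (d2) and 0.297 to 2.26 (d2.5), too wide to place the start of its difference. Dlk1 was high from d3, when wildtype Meg3 itself had come down from 10.2 CPM at d2 to 3.77 CPM. Over the 15 wildtype libraries the Pearson r of Meg3 with Dlk1 was -0.465.

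Mesoderm markers, as a sum, were higher in the same libraries as Dlk1 at d4 and d4G. The summed level of 10 markers was 405.9 to 441.0 CPM in Nr6a1-/- and 124.3 to 147.1 CPM in wildtype libraries at d4, and 211.4 to 252.0 against 127.5 to 167.0 CPM at d4G. At d3 the sums overlapped, at 32.1 to 50.6 against 24.4 to 35.7 CPM, and at d2 they were 23.1 to 31.1 against 48.1 to 60.0 CPM. Tcf15 alone made most of the d2 sums, with means of 23.6 against 47.2 CPM, and 1 to 2 of the 10 markers lay above 2 CPM in a library. Of 5 markers tested, 3 were higher and 1 was lower in Nr6a1-/- cells at d4 (edgeR FDR below 0.05), where 18.9% of all genes were called. Of the 10, 4 to 5 lay above 2 CPM in an Nr6a1-/- library against 6 in each wildtype library. Meox1, a transcription factor of somites, was 201.4 against 4.05 CPM at d4 and 17.7 against 0.988 CPM at d4G. Hand2 held 0 or 1 counts per group at these stages. Tbx6 was 190.7 against 95.8 CPM at d4, and Meox1 and Tbx6 made most of the d4 sum in Nr6a1-/- cells. Tcf15 and Kdr had higher means there as well. Foxf1 (0.862 against 6.86 CPM), Pdgfra (12.9 against 17.0 CPM), Osr1, Msgn1 and Hand1 had lower means in Nr6a1-/- cells at d4. The part of mesoderm-like cells in the Dlk1 difference was not tested.

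**Figure D3:**
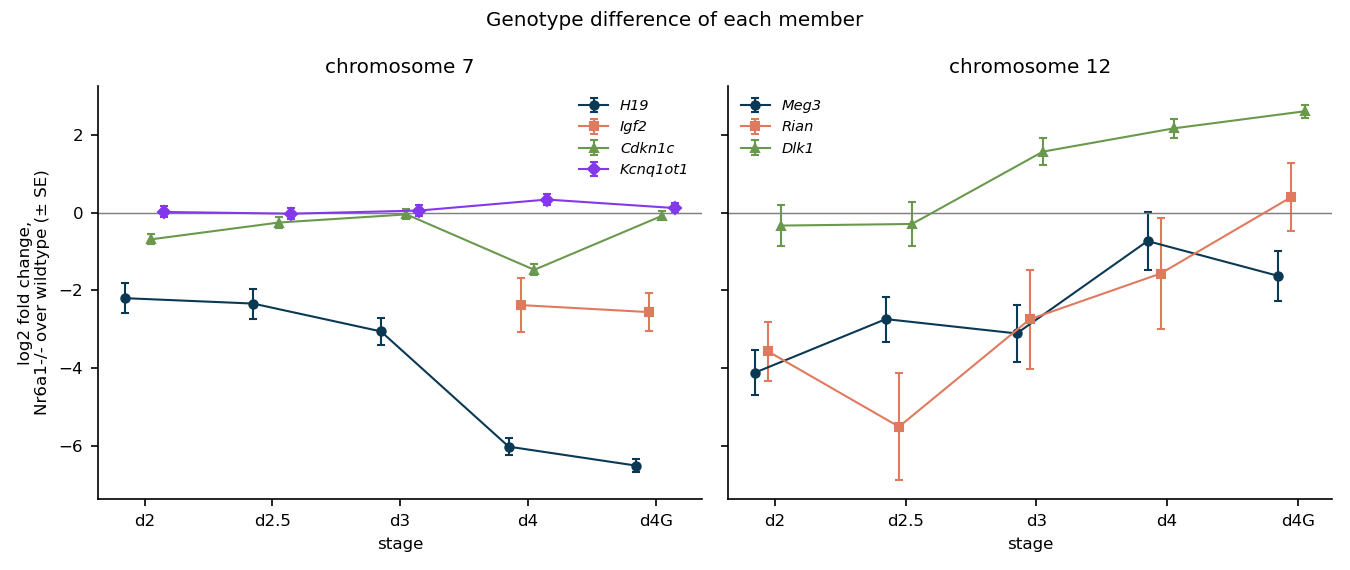
Log2 fold change of Nr6a1-/- over wildtype (vertical axis) by stage (horizontal axis) for the members on chromosome 7 (left) and chromosome 12 (right), as points with the SE of the fit. H19 reaches -6.51 at d4G, Dlk1 moves from -0.33 at d2 to 2.62 at d4G, and Kcnq1ot1 stays within -0.02 and 0.34; Mirg, and Igf2 before d4, had too few counts to plot.

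At the same FDR threshold, the genotype contrasts that selected them called 4 of the 7 tested members at d2, where 4.07% of the 12149 genes tested were called, and then 3 (d2.5; 6.45%), 3 (d3; 10.8%), 4 (d4; 18.9%) and 3 (d4G; 7.90%). Nothing is read from these counts, which the choice of members fixed. The steps between stages use the same libraries as those contrasts, so that they are not independent of the choice. Wildtype cells had 1 member called from d2 to d2.5 (25.4% of all genes), 1 to d3 (11.5%), 3 to d4 (21.1%) and 5 from d4 to d4G (28.8%). Igf2, admitted by its d4 and d4G level, is 1 of the 3 called to d4. Nr6a1-/- cells had 0 members called from d2 to d2.5 (24.1%; 0 also at an unadjusted p below 0.05 and in DESeq2), 2 to d3 (15.9%), 2 to d4 (25.9%) and 4 from d4 to d4G (18.0%). The 5 members that rose with Gdf11 in wildtype cells were H19, Igf2, Kcnq1ot1, Cdkn1c and Dlk1, and all but Igf2 also passed in Nr6a1-/- cells. Meg3 and Rian passed in neither.

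The genes around the members were compared to see how far along the chromosome the differences reached. These neighbours were taken by position, with the members left out. Within 1 Mb of the H19 start 16 genes were tested, and 2, 2, 4, 3 and 1 of them were called between genotypes at the 5 stages in turn. Their median log2 fold change lay between -0.31 at d4G and -0.10 at d2.5, while that of all 895 tested genes of chromosome 7 lay between -0.0034 and 0.04. At d4G the single genes of the window ran from -1.30 to 0.06. The median depended on the genes taken: over the 12 tested genes of the wider chromosome 7 domain list it lay between -0.22 at d4 and -0.05 at d4G. In the window around H19, Ascl2 is 1 of the d4 calls. The share called was 12.5% (d2) against 4.07% of all genes, 12.5% (d2.5) against 6.45% and 25.0% (d3) against 10.8%. It was 18.8% (d4) against 18.9% and 6.25% (d4G) against 7.90%, each on 1 to 4 genes. The window of 1 Mb around the Kcnq1ot1 start overlaps this one and held 15 tested genes. There the share called was 13.3% (d2) against 4.07% of all genes, 20% (d2.5) against 6.45% and 33.3% (d3) against 10.8%. It was 40% (d4) against 18.9% and 6.67% (d4G) against 7.90%, with medians between -0.22 and -0.11. At d4, 3 were higher and 3 lower, and the lower ones, Ascl2, Ctsd and Phlda2, are the same genes as the d4 calls of the H19 window. The d4 calls of Cars and Tnfrsf22 were lost without some single libraries. The remaining higher gene, at 2.80 CPM in Nr6a1-/- and 0.728 CPM in wildtype cells, was not refitted without single libraries. Within 1 Mb of the Meg3 start 7 genes were tested, of which 1 was called at d4 and 0 at every other stage (1 at an unadjusted p below 0.05 in edgeR and 0 called in DESeq2 at each of these). The share at d4 was 14.3% against 18.9% of all genes, with medians between -0.01 and 0.24. The 435 tested genes of chromosome 12 had medians of -0.01 to 0.08.

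Phlda2, an imprinted gene known to restrain placental growth, lies 206.6 kb from the Kcnq1ot1 start and was called in both directions. It had 139, 125 and 126 CPM in wildtype and 86.6, 75.6 and 69.8 CPM in Nr6a1-/- libraries at d2. It was lower at d2 (log2 fold change -0.75 ± 0.11; edgeR FDR = 1.35e-05), d2.5 (-0.48 ± 0.12; edgeR FDR = 0.00770) and d4 (-0.73 ± 0.10; edgeR FDR = 2.83e-07). At d3 it was higher, at 170.9 against 109.8 CPM (0.64 ± 0.11; edgeR FDR = 4.51e-05). It shared with Cdkn1c the stages d2 and d4, at which both were lower in Nr6a1-/- cells. The d2.5 call of Phlda2 was lost without wildtype replicate 2 (-0.42) or Nr6a1-/- replicate 3 (-0.41).

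Ctsd, the lysosomal protease cathepsin D, starts at -190.1 kb from the H19 start, towards lower coordinates, and was lower in Nr6a1-/- cells from d2.5 on, with -0.35 ± 0.10 at d2.5 (edgeR FDR = 0.0233) and -0.76 ± 0.10 at d4G (edgeR FDR = 1.09e-06). Cd81, a tetraspanin of the cell surface, was lower at d2 (-0.44 ± 0.11; edgeR FDR = 0.0185) and d3 (-0.54 ± 0.11; edgeR FDR = 7.03e-04). The d2 call of Cd81 was lost without wildtype replicate 2 (-0.36) or 3 (-0.44) or without Nr6a1-/- replicate 1 (-0.39) or 2 (-0.38), and the d2.5 call of Ctsd without wildtype replicate 2 (-0.32) or 3 (-0.32) or Nr6a1-/- replicate 2 (-0.30). Ascl2, a transcription factor of trophoblast, passed the filter through wildtype d4 alone, so that its d4 call is not read. It had 9, 11 and 16 counts in the wildtype and 3, 2 and 1 in the Nr6a1-/- d4 libraries.

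Cars and Nap1l4 showed the opposite sign at d3, by 0.61 ± 0.11 (edgeR FDR = 1.34e-04) and 0.41 ± 0.10 (edgeR FDR = 0.00579). Nap1l4 lost its call without wildtype replicate 3 (0.31) or Nr6a1-/- replicate 1 (0.32). On chromosome 12, Yy1 and Wars had log2 fold changes between -0.12 and 0.15 over the 5 stages (edgeR FDR of 0.389 or more). Ppp2r5c, at the far end, was higher at d4 (0.44 ± 0.09; edgeR FDR = 4.24e-04). Of the wider domain lists, 12 of 25 genes on chromosome 7 and 5 of 12 on chromosome 12 could be tested, and the others, Rtl1 and Dio3 among them, held at most 14 and 17 counts in a library.

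**Figure D4:**
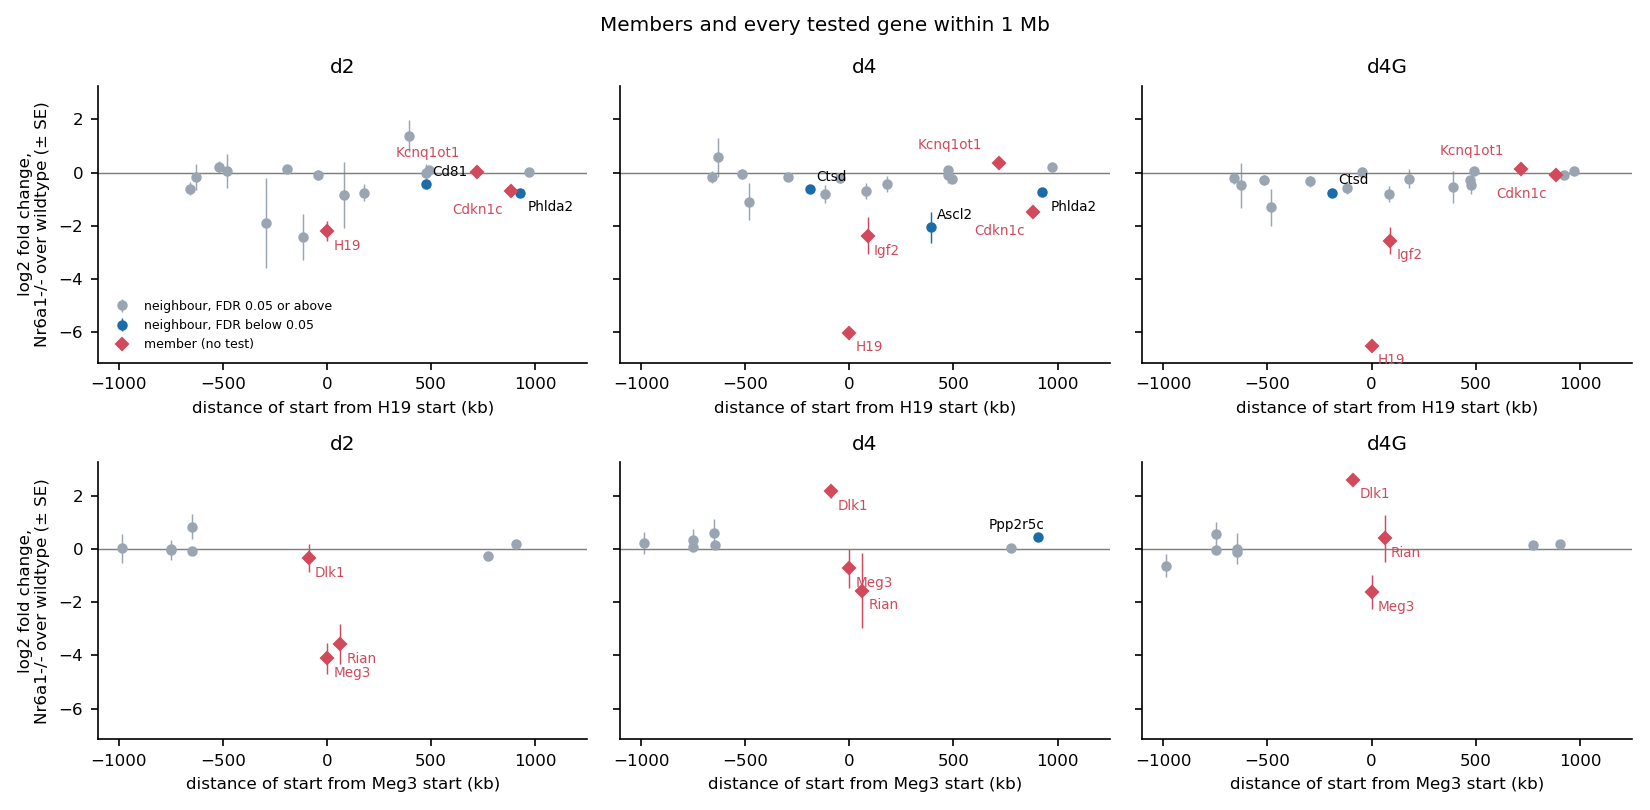
Log2 fold change of Nr6a1-/- over wildtype with SE (vertical axes) of the members (red diamonds) and of every tested gene within 1 Mb (grey, FDR 0.05 or above; blue, below) by the distance of their starts in kb (horizontal axes) from the H19 start (upper row) and the Meg3 start (lower row) at d2, d4 and d4G. H19 at -6.02 and Igf2 at -2.38 stand at d4 beside neighbours of -2.07 to 0.58, and the 7 genes around Meg3 lie between -0.25 and 0.85 at d2.

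The genes that place and keep imprints were examined as the next layer. At d2, when H19, Meg3 and Rian were already low, 4.07% of all genes were called. Of 19 imprint genes tested, edgeR called 0 at d2 (3 at an unadjusted p below 0.05, 0 in DESeq2). The fit of the d2 libraries alone called 2 there, Dnmt3b and Dnmt3l, and the fit with no filter called Dnmt3b. In the fit of all libraries 2, 2, 6 and 2 were called at the later stages in turn, where 6.45%, 10.8%, 18.9% and 7.90% of all genes were. At d2.5, d3 and d4G these counts are near the background, as is the 0 at d2. Their median log2 fold change was -0.01 to 0.09 over the stages, against -0.01 to 0.02 for all genes. Dppa3, which protects methylation in the zygote, was lower at d3 (-0.91 ± 0.24; edgeR FDR = 0.00857), d4 (-1.56 ± 0.28; edgeR FDR = 8.72e-05) and d4G (-2.52 ± 0.33; edgeR FDR = 9.17e-07). Its d3 call was lost without wildtype replicate 1 (-0.77) or Nr6a1-/- replicate 3 (-0.72). At d4G its libraries had 38.1, 14.6 and 26.6 CPM in wildtype and 4.33, 5.09 and 4.29 CPM in Nr6a1-/- cells.

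Tet3, an enzyme that oxidises methylated cytosine, was higher at d2.5 (0.71 ± 0.16; edgeR FDR = 0.00391) and d4 (0.82 ± 0.15; edgeR FDR = 5.23e-05). Dnmt3l, a cofactor of the de novo methyltransferases, was lower at d2.5 (-1.11 ± 0.25; edgeR FDR = 0.00398). Its d4 call (-1.44 ± 0.47; edgeR FDR = 0.0284) was lost without wildtype replicate 1 (-1.18) or 2 (-1.19) or Nr6a1-/- replicate 1 (-1.37) or 3 (-1.34). The de novo methyltransferase Dnmt3b had a log2 fold change of -1.41 ± 0.36 at d4 (edgeR FDR = 0.00482), which rests on the library d4 wildtype replicate 2: it held 515.6 CPM against 71.1 and 68.7 CPM in the other replicates, and without it the value was 0.25 (edgeR FDR = 0.0809). At d2, Dnmt3b was 2383 to 2433 CPM in Nr6a1-/- and 1689.6 to 1763 CPM in wildtype libraries with no overlap. Its d2 value of 0.48 did not pass in the fit of all libraries (edgeR FDR = 0.467) and passed in the fit of the d2 libraries alone (0.48; edgeR FDR = 2.42e-06). At d2.5 and d3 it did not pass in the fit of all libraries either (edgeR FDR = 0.491 and 0.477). With only the libraries compared, it passed at d2.5 (0.42, edgeR FDR = 0.0013) and at d3 (0.45, edgeR FDR = 0.0012).

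Genes of the insulin-like growth factor axis, in which Igf2 is a ligand, were compared next. Of 13 tested, edgeR called 0 at both d2 (4.07% of all genes) and d2.5 (6.45%), and on 13 genes 0 is near these shares. At an unadjusted p below 0.05 there were 2 and 3, and DESeq2 called 0. Igfbp2 was called at d2.5 with no filter and with only the libraries compared. In the fit of all libraries 4 (d3; 10.8% of all genes), 7 (d4; 18.9%) and 3 (d4G; 7.90%) were called, with medians of -0.12 to 0.19. At d4 and at d4G, 1 of the calls is of a gene that passed the filter through wildtype d4 and d4G alone, and it is not read. Igfbp2, which binds the ligands, was higher at d3 (0.92 ± 0.21; edgeR FDR = 0.00240) and d4 (2.16 ± 0.20; edgeR FDR = 2.00e-10). At d4 it had 17.9, 53.9 and 17.7 CPM in wildtype libraries, and without the high replicate 2 the value was 2.95. Higher as well was Igfbp4 at d4 (0.92 ± 0.15; edgeR FDR = 8.39e-06). Another binding protein gene was lower at d4 (-2.215, edgeR FDR = 0.0106), a call lost without wildtype replicate 3 (-1.80). Igfbp3 was higher at d4 (1.16 ± 0.35; edgeR FDR = 0.0172), a call lost without wildtype replicate 1 (0.98) or without Nr6a1-/- replicate 2 (1.10) or 3 (0.73). Irs2, an adaptor of the receptors, was lower at d3 (-0.76 ± 0.21; edgeR FDR = 0.0125), d4 (-1.09 ± 0.22; edgeR FDR = 3.37e-04) and d4G (-0.76 ± 0.20; edgeR FDR = 0.0109). Its calls at d3 and d4G were lost without some single libraries, at d3 without wildtype replicate 2 (-0.68) and at d4G without wildtype replicate 2 (-0.68) or Nr6a1-/- replicate 1 (-0.73).

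Imprinted genes elsewhere in the genome that are known to be expressed together with H19 and Dlk1 were called in both directions between genotypes. Of 14 tested, 2, 4, 3, 6 and 2 were called at the 5 stages in turn, where 4.07%, 6.45%, 10.8%, 18.9% and 7.90% of all genes were, with medians of 0.01 to 0.26. In Nr6a1-/- cells 0, 3, 2, 5 and 1 of them were higher and 2, 1, 1, 1 and 1 lower. Peg3, a paternally expressed zinc finger gene, was higher in Nr6a1-/- cells at d2.5 (0.42 ± 0.10; edgeR FDR = 0.00431; lost without Nr6a1-/- replicate 3, 0.34), d3 (0.90 ± 0.09; edgeR FDR = 9.61e-09), d4 (1.51 ± 0.10; edgeR FDR = 6.78e-15) and d4G (0.52 ± 0.10; edgeR FDR = 2.16e-04). Usp29, which is known to share a promoter region with Peg3, was higher at d2.5, d3 and d4, by 1.69 ± 0.20 at d4 (edgeR FDR = 3.50e-08), and its d2.5 call was lost without wildtype replicate 1 (0.85) or 2 (0.73) or Nr6a1-/- replicate 2 (0.80). Sgce was higher at d4 (0.96 ± 0.18; edgeR FDR = 1.01e-04), and Peg10, which starts beside it, was lower at d2 (-0.82 ± 0.22; edgeR FDR = 0.0207) and higher at d4 (0.63 ± 0.21; edgeR FDR = 0.0273). Both calls of Peg10 were lost without some single libraries, at d2 without wildtype replicate 3 (-0.64) or Nr6a1-/- replicate 2 (-0.67) or 3 (-0.75), and at d4 without wildtype replicate 1 (0.56) or 2 (0.55) or Nr6a1-/- replicate 1 (0.30).

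Likeness of pattern was measured on log2 CPM over the 15 wildtype libraries among 9376 genes. The 5 genes closest to H19 were Mylip (Pearson r = 0.985), Zmiz1 (0.979), Hoxd8 (0.976), Mdk (0.976) and Adamtsl2 (0.975). Those closest to Meg3 were Fam171b (0.890), Gm10499 (0.889), Meioc (0.879), Hus1 (0.878) and Nqo1 (0.872). Over all 30 libraries, where the genotype enters, the order was another, led for H19 by Pitx1 (0.929) and Dnaja2 (0.870) and for Meg3 by Smarca5 (0.828) and Ddx28 (0.793). All libraries share the same stages, and any gene with the same course scores highly.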

How the data were processed

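The members and gene lists were chosen with earlier results of these data known. Priming at the poly(A) tail gave 3′-end libraries with a molecular identifier, and the authors aligned reads with STAR (build mm10 per the submitters' processing notes). The aligner's version, annotation, counting tool, use of strand and collapsing of identifiers are not given in the sources used here. The deposited table holds counts per gene and library, neither normalised nor pooled. The authors' tables of fold changes and p-values per stage were not used. All 30 libraries were matched to columns by name, and 0 columns of per-sample values were left over.

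The filter required counts above 10 and CPM above 2 in 2 or more libraries of any group, and it retained 12149 of 54134 rows. CPM were scaled by TMM factors. A model of all 10 groups was fitted with edgeR 4.0.16 under R 4.3.3 (20 residual degrees of freedom), and 13 comparisons were tested with glmQLFit and glmQLFTest, 2-sided. Genes with a Benjamini-Hochberg FDR below 0.05 over all 12149 genes were called. SE is the absolute log2 fold change over the square root of F. Exact intervals of pooled counts (95%) and the limit of 3 counts at 0 cover counting error only, and amplified copies would widen them. Replicates of a group differed beyond sampling noise in each pair (chi-square per gene 1.45 to 6.68). The fit was tested on simulated data. DESeq2 1.42.0 was an alternative, as were other factors, no filter, fewer libraries and a replicate block.

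Positions are those of GENCODE release M21 on GRCm38, counted from 1, to which 97.7% of rows matched, and promoter windows and microRNAs come from RefSeq. Named were all 8 members, any tested gene of the chromosome 7 and 12 domain lists, and of each other list at most 4 called genes that had the largest change and averaged 10 CPM or more in a group. For likeness, the 5 genes with the highest Pearson r on log2 CPM (prior count 2) were named, and of the 5 over all 30 libraries the first ones. Markers used in a check were named as well.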

Additional observations from a re-analysis of the deposited data

Results flagged for a closer look

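Among genes near the members, Phlda2, Cars and Ppp2r5c had every Nr6a1-/- library above every wildtype library at some stage and below at another. The share of all tested genes that do so was not counted, and nothing is read from their number. The difference between stages was not tested. Phlda2 had log2 fold changes of Nr6a1-/- over wildtype of 0.64 at d3 against -0.75 (d2), -0.48 (d2.5) and -0.73 (d4). Cars, which encodes a transfer RNA synthetase, had -0.38 at d2.5, 0.61 at d3 and 0.35 at d4, and its calls at d2.5 and d4 were lost without some single libraries. Ppp2r5c, a phosphatase subunit on chromosome 12, had -0.19 at d3 against 0.19 (d2), 0.27 (d2.5), 0.44 (d4) and 0.19 (d4G), and only the d4 value passed the FDR threshold.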

How the results depend on the processing

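Totals over comparisons were recomputed under 6 other settings and without each library. Over the 4 wildtype steps 10 calls of members were made, and 9 to 10 under the other settings and 9 to 11 without 1 library. Over the Nr6a1-/- steps it was 8 throughout, and 8 to 9 without 1 library. Between genotypes 17 calls of members became 13 in DESeq2 and 14 with only the libraries compared, neighbours of the domain lists 17 became 15 to 17, and genes of the IGF axis and imprint maintenance 26 became 23 to 31. None of these totals moved by more than 1.5 times. Same-numbered replicates did not deviate together (correlations of -0.11 to 0.16), so that the numbers were not taken to pair the libraries. With the replicate block the totals were 10, 8, 18, 17 and 26 in the same order, and no stage step of a member changed its call under the block. Calls of stage steps that were lost or gained concerned Kcnq1ot1, Cdkn1c, Meg3, Rian and H19: Kcnq1ot1 from d3 to d4 in wildtype was lost with no filter (-0.35), in DESeq2 (-0.38) and with only the libraries compared (-0.39), H19 from d2.5 to d3 in wildtype was gained without d2.5 replicate 1 (1.32), Rian from d2 to d2.5 in wildtype without d2.5 replicate 2 (-2.09) and from d4 to d4G in Nr6a1-/- cells without d4G replicate 3 (3.49); the cause was not tested. The Rian step from d2 starts at the only group through which Rian passed the filter, and is not read. Counts within a list moved more. Of imprint maintenance genes 2 calls at d3 became 5 with no filter and 7 with only the libraries compared, 6 at d4 became 2 with only the libraries compared, and 2 at d4G became 1 without normalisation factors. Of IGF axis genes 0 at d2.5 became 1 (Igfbp2) with no filter and with only the libraries compared. Of the other imprinted genes 2 at d2 became 4, and 6 at d4 became 3, with only the libraries compared. Over all genes the 2294 calls at d4 became 1398 with only the libraries compared. Depth limits Igf2 before d4, Rian after d2.5 and Mirg throughout.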
